A study of Homo sapiens with 6 samples.

Results

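The transcriptome described here is that of NCI-H460 cells carrying a nontargeting guide (sgNTG), the control state of a study that directed repression at CPT1 in this line. It comprises 2 libraries, sgNTG replicates 1 and 2, of 6 libraries in all. They were chosen by their labels, not by any measured value. NCI-H460 is an established human cell line from a large cell lung carcinoma, a lung cancer class defined by the lack of glandular, squamous or small cell features. The cells had been infected with a lentivirus carrying KRAB-dSpCas9, a Cas9 that cannot cut joined to the KRAB domain, which represses transcription where a guide places it, together with a guide that matches no intended target. They are labelled as WT in genotype, and were selected and kept in 2 μg/ml puromycin beginning 48 h after infection. Both libraries therefore describe infected, drug-selected cells, and not the parental line. The level of the repressor itself was not examined here. The other 4 libraries carried guides against CPT1 (2 with sg1 and 2 with sg2) and were not compared here.

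A baseline of this kind shows which programmes a cancer line runs before any gene is perturbed. Lung cancer lines differ in how much of the epithelial, mesenchymal and neuroendocrine programmes they transcribe, and in which growth and stress regulators are active. NRF2, encoded by NFE2L2, turns on antioxidant and detoxification enzymes. CREB and its CRTC coactivators turn on genes downstream of cyclic AMP.

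Levels are FPKM, fragments per gene divided by transcript length in kilobases and by library size, so they can be compared between genes. A percentile is the share of protein-coding genes above 0 with a lower mean of both libraries. Unless 2 values are given, a level is that mean. Whether the libraries came from separate cultures is not stated in the labels, so the spread between them may be technical. With 1 group of 2 libraries no test was made, and every statement is a description. The library depth is unknown in FPKM, but the spacing of the lowest values put replicate 1 at 0.853 of the depth of replicate 2. The table used here listed 13059 protein-coding genes of the nuclear genome, 65.4% of those in GENCODE 29. Other genes, the CPT1 isoforms among them, were not analysed here. A listed 0 is not read as silence, because all 37 genes of the mitochondrial genome, which every such cell uses, were listed at 0.

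Of the 13059 protein-coding genes, 6736 (51.6%) had at least 1 FPKM, 2817 (21.6%) at least 10, 258 (1.98%) at least 100 and 31 at least 500. Among the 10119 above 0, the median was 3.56 FPKM, the quartiles were 0.327 and 11.4 FPKM, and the top decile began at 29.8 FPKM. Over genes of every type, 8848 had at least 1 FPKM. Both libraries gave nearly the same picture. Their log2(FPKM + 1) values correlated across these genes at Pearson r = 0.991, genes not being independent replicates, and the median gene differed 1.06-fold between them. They shared 19 of their 20 highest and 98 of their 100 highest protein-coding genes.

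The most abundant messages came from secreted, lysosomal and matrix genes as well as from the translation machinery. SRGN, which encodes serglycin, the proteoglycan core of secretory granules, led the protein-coding genes with 2162 and 2188 FPKM (chromosome 10, 69088106 to 69104811, hg38). CTSL, the lysosomal protease cathepsin L, followed with 1735 and 1745 FPKM (chromosome 9, 87725519 to 87731393). EEF1A1, an elongation factor of translation, came next with 1718 and 1232 FPKM, and then TFPI2. The spread of EEF1A1 between libraries was wide enough to change its place: it stood below TFPI2 in replicate 2 and above it in replicate 1. Of the 20 highest genes, 4 encode ribosomal proteins (RPS24, RPL26, RPS16 and RPL7A, 663 to 949 FPKM). Some processed pseudogene rows exceeded their parent gene, such as RPL23AP42 (1155 FPKM, beside 219 for RPL23A) and EEF1A1P5 (2136, beside 1475 for EEF1A1). Others did not, such as RPL7AP6 (661, beside 663 for RPL7A). How reads were shared between such rows is not known, so the places of the translation genes are uncertain. The matrix genes FN1 (fibronectin) and TGFBI had 1029 and 931 FPKM. The chemokine CXCL1, known for attracting neutrophils, had 840 and 818 FPKM.

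SH2D2A and TBXT, both among the 20, are known mainly from other tissues. SH2D2A, an adapter protein known from T cells, had 799 and 792 FPKM (chromosome 1, 156806243 to 156816862). TBXT, the T-box factor brachyury that specifies mesoderm and notochord in the embryo, had 723 and 730 FPKM (chromosome 6, 166157656 to 166168700). Both libraries gave either gene almost the same level. SAT1, which acetylates polyamines, had 698 FPKM, and TMSB10, which binds actin monomers, had 1172 FPKM. FTH1, the ferritin heavy chain, had 837 FPKM in replicate 1 and 523 in replicate 2, which placed it inside the 20 on average only because of replicate 1.

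**Figure D1:**
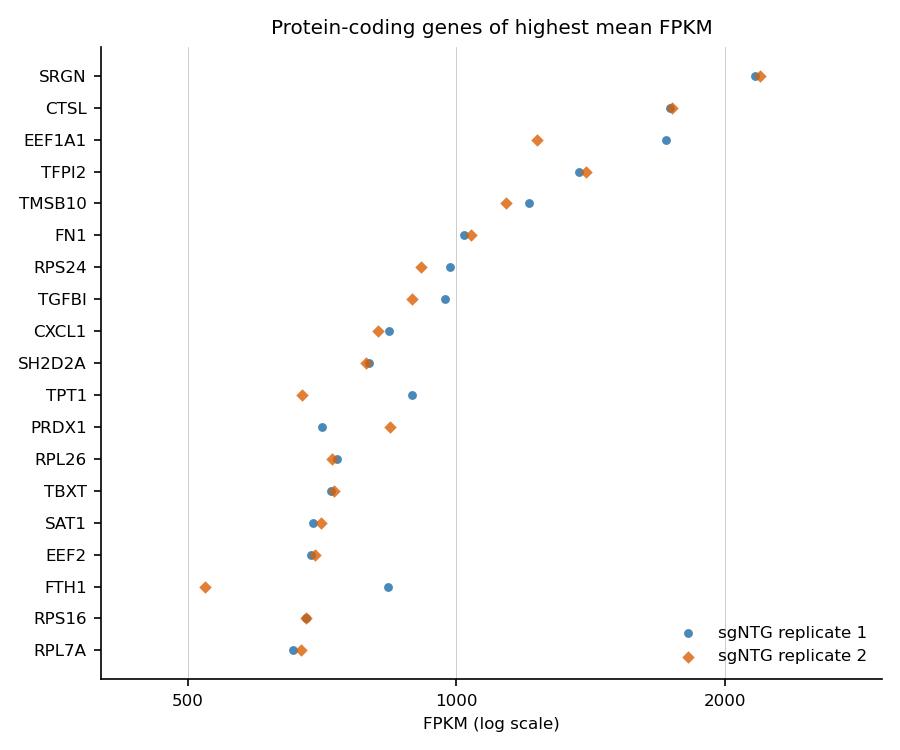
FPKM (log scale) of 19 of the 20 protein-coding genes with the highest mean, by library (circles, sgNTG replicate 1; diamonds, sgNTG replicate 2). Most pairs of points nearly coincide, as for SRGN at 2162 and 2188 FPKM, while EEF1A1, TPT1 and FTH1 were higher in replicate 1 and PRDX1 was higher in replicate 2.

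Promoters of the genes behind these levels were read for short motifs, because several of the genes are known targets of NF-kB, AP-1 or CREB. The 250 bases before each start in the RefSeq promoters (GRCh38.p14) were searched on both strands for GGGANTTTC (NF-kB), TGANTCA (AP-1), TGACGTCA (the cyclic AMP response element, CRE) and TATAAA (the box of many core promoters). A promoter can count for several motifs. In these letters N is any base, so a match such as TGAATCA in TFPI2 is counted without a stricter AP-1 rule. Of the 20 highest genes, 15 had a promoter in the tables. The AP-1 letters occurred in that of TFPI2, the CRE in those of FN1 and EEF2, and the NF-kB letters in that of CXCL1. Among all 27305 genes with a promoter, 8.06% held the AP-1 letters, 2.03% the CRE, 1.37% the NF-kB letters and 13.0% the TATA letters. The windows are shown for the genes whose levels are described here, 5′ to 3′ on the strand of the gene, with the motif (in either orientation) in capitals. The promoters of CXCL1, IL6 and CXCL5, which encode inflammatory cytokines, share the NF-kB letters. A match describes the letters of a window and not a bound site.
CXCL1, NF-kB, chr4:73869284-73869352, plus strand: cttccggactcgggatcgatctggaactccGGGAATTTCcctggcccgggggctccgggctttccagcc
IL6, NF-kB, chr7:22727097-22727165, plus strand: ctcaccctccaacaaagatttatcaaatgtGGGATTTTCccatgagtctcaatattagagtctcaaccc
CXCL5, NF-kB, chr4:73998730-73998798, minus strand: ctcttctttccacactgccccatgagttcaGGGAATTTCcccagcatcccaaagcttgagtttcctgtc
TFPI2, AP-1, chr7:93890804-93890870, minus strand: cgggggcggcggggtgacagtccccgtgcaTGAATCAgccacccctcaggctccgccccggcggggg
FN1, CRE, chr2:215436214-215436281, minus strand: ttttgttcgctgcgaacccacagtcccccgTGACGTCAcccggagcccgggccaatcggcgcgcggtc
TBXT, TATA, chr6:166168656-166168714, minus strand: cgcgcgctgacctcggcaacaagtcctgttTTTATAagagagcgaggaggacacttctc

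The 5 genes chosen as marks of this baseline all lay in its top decile. They were chosen with earlier results of these data known, so this place is not a finding. TFPI2, an inhibitor of plasmin and related serine proteases in the extracellular matrix, had 1371 and 1396 FPKM and ranked 4th of the protein-coding genes (chromosome 7, 93885396 to 93890991). AKR1B10, an aldo-keto reductase that reduces retinal and reactive aldehydes, had 459 and 468 FPKM and ranked 36th (chromosome 7, 134527592 to 134541408). GRAMD1B, which transfers cholesterol from the plasma membrane to the endoplasmic reticulum, had 331 and 334 FPKM and ranked 52nd (chromosome 11, 123358428 to 123627774). The 5 genes serve unrelated functions: protease inhibition, detoxification, sterol transfer, hormone secretion and cell adhesion. STC1, the glycoprotein hormone stanniocalcin, had 281 and 287 FPKM and ranked 70th (chromosome 8, 23841915 to 23854807). NCAM1, a neural adhesion molecule also known as CD56, had 107 and 101 FPKM and ranked 249th (chromosome 11). No neighbours in this order overlapped between libraries, so the order was the same in both.

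Markers of cell identity gave a mixed picture: a few very high matrix and intermediate filament genes, single high epithelial and neuroendocrine genes, and low levels of most genes of the lung's own lineages. The label calls the cells a lung cell line. In bulk RNA, fewer cells of a type and less RNA per cell cannot be told apart, so these levels are averages over the culture.

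Among epithelial genes, the simple keratins were high. KRT19 had 155 and 154 FPKM and KRT18 had 89.9 and 88.2 FPKM, both in the top decile. CLDN1, a tight junction protein, had 30.8 FPKM, F11R, a junctional adhesion molecule, 22.7, and TJP1, a tight junction scaffold, 16.3. CDH1, the adherens junction cadherin that defines epithelium, had 0.105 and 0.0206 FPKM. GRHL2, OVOL1 and RAB25 were listed at 0, and the splicing regulator ESRP1 had 0.886 FPKM. KRT19, KRT18, CLDN1, F11R and TJP1 thus lay far above CDH1 in both libraries. The claudin gene CLDN3 did not: it was among the lowest members above 0, beside ST14 and CDH1. Of the 18 listed genes of this group, 5 had at least 10 FPKM (27.8%, beside 21.6% of all protein-coding genes listed), and the median of those above 0 was 2.04 FPKM.

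The mesenchymal list held some of the highest genes of the cells. FN1 had 1019 and 1039 FPKM, TGFBI 970 and 892, and VIM, the intermediate filament of mesenchymal cells, 656 and 628. S100A4, a calcium-binding protein of motile cells, had 207 FPKM. The rest of the list was much lower: CALD1 had 31.7 FPKM, the fibrillar collagen gene COL3A1 9.4, SNAI1, a repressor of epithelial genes, 2.24, and COL1A2 was listed at 0. Of 15 listed genes, 5 had at least 10 FPKM (33.3%, beside 21.6% of all protein-coding genes listed). The median of the list's members above 0 was 7.08 FPKM. The list therefore split into 4 genes above 200 FPKM and a majority near the middle of all genes.

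Neuroendocrine genes were likewise uneven. Beside NCAM1 came SCG2, a granin of secretory vesicles, with 31.4 and 31.5 FPKM, SYT1, a calcium sensor of vesicle release, with 12.5 FPKM, and CHGA, chromogranin A, with 9.10 FPKM. INSM1, a transcription factor of neuroendocrine cells, had 0.249 and 0.494 FPKM. SCG5 (0.0185 FPKM), SCG3 and CHGB were the lowest members above 0. DDC, STMN2 and POU2F3, the last a factor of tuft cells, were listed at 0. Of the 14 listed genes 3 had at least 10 FPKM (21.4%, beside 21.6% of all protein-coding genes listed), and the median above 0 was 4.12 FPKM, near the 3.56 FPKM of all protein-coding genes, so the list as a whole did not stand out.

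Most lung lineage genes above 0 were low, with a median of 0.265 FPKM. Of the 19 listed, 3 had 1 FPKM or more (15.8%, beside 51.6% of all protein-coding genes listed). NKX2-1, the defining factor of the lung epithelium, the surfactant genes SFTPB and SFTPA1, the club cell gene SCGB1A1, and FOXA2 and PDPN were listed at 0, which makes 6 of the 19, where 22.5% of all protein-coding genes listed were at 0; these zeros are not read as silence. The list's highest members were CAV1, a caveola protein, with 32.1 FPKM, HOPX with 16.6 and ABCA3, a lipid transporter of surfactant bodies, with 4.74. The basal and squamous list was similarly low, with TP63, its defining factor, at 0.135 and 0.114 FPKM, and KRT14 and DSG3 listed at 0. SERPINB5, a serpin of basal epithelium, stood apart at 25.6 FPKM in both libraries. Hepatic and gut genes had 8 of 16 members listed at 0, beside the same 22.5%, and a median of 0.063 FPKM above 0. Their one high member was CPS1, the first enzyme of the urea cycle, with 233 and 241 FPKM.

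Markers of immune, endothelial and erythroid cells were also read, as cells that a pure line should lack. Of 13 listed, 6 were at 0 (beside 22.5% of protein-coding genes) and 2 had at least 1 FPKM (15.4%, beside 51.6%). Their levels summed to 35.1 FPKM in replicate 1 and 32.7 in replicate 2. CD68, a lysosomal protein of macrophages, made up most of this with 26.5 and 21.9 FPKM. Its span overlaps that of another listed gene of the same strand, ENSG00000264772, at 23.3 and 28.3 FPKM. Among 7 fibroblast and stromal genes, 4 were at 0 and LUM, the matrix proteoglycan lumican, had 47.1 and 44.6 FPKM.

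**Figure D2:**
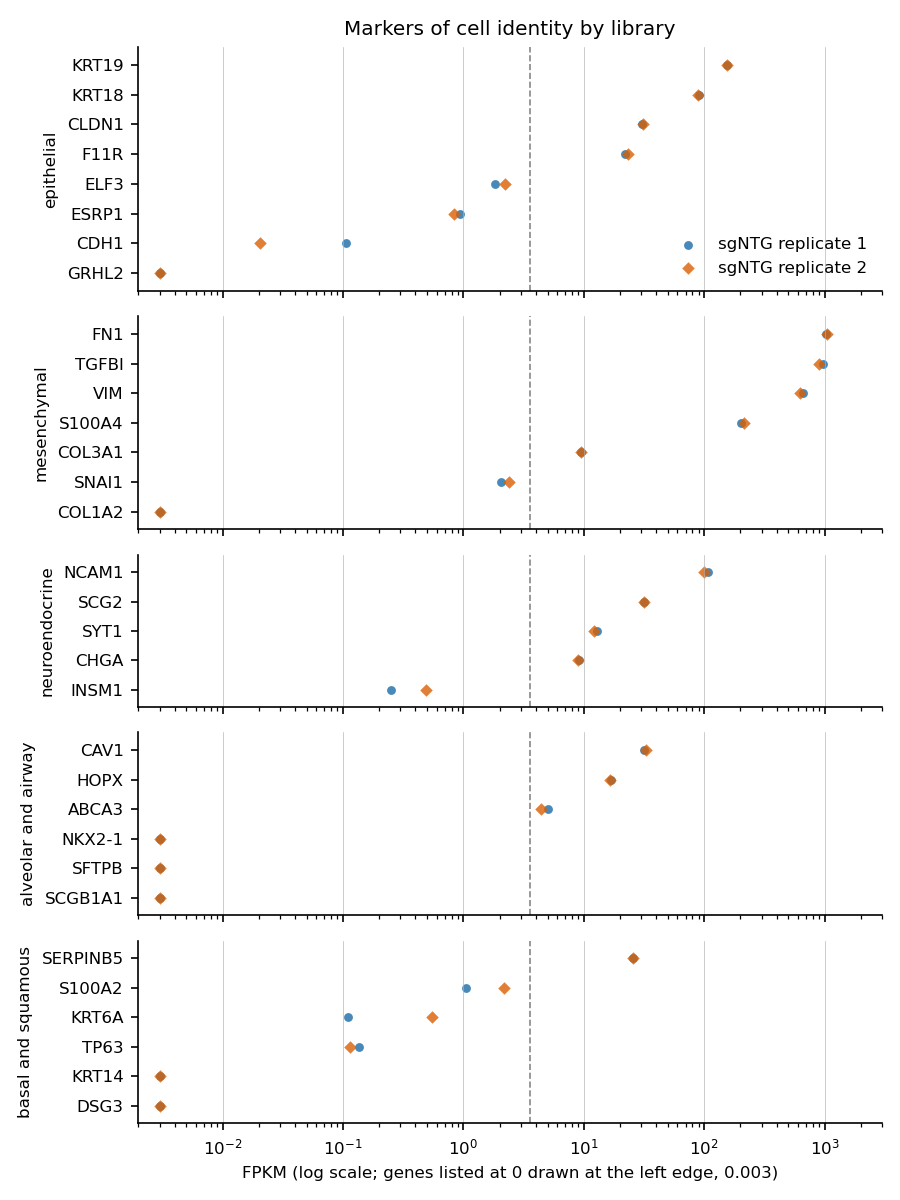
FPKM (log scale) of markers of 5 cell identities by library (circles, sgNTG replicate 1; diamonds, sgNTG replicate 2); genes listed at 0 are drawn at the left edge and the dashed line is the protein-coding median of 3.56 FPKM. KRT19, KRT18, FN1, TGFBI, VIM and NCAM1 lay far to the right of the line, while CDH1, TP63 and INSM1 lay left of it. NKX2-1, SFTPB and KRT14 sat at the edge.

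NRF2 targets were among the highest lists. Of 36 chosen genes 20 were listed, 19 of them had at least 10 FPKM (95%, beside 21.6% of all protein-coding genes listed), and 17 lay in the top decile, which holds 10% of genes by construction. The list's median was 96.2 FPKM, at the 97.3rd percentile. PRDX1, a peroxiredoxin that removes peroxide, had 706 and 842 FPKM, and NQO1, the quinone reductase often used as a readout of NRF2, had 524 and 507 FPKM. Thioredoxin (TXN, 465 and 468 FPKM) and its reductase (TXNRD1, 488 and 470 FPKM) had close levels. Besides AKR1B10, SRXN1, which repairs oxidized peroxiredoxins, had 163 FPKM and SLC7A11, the cystine importer, 49.8. GCLM, a subunit of the enzyme that begins glutathione synthesis, had 31.8 FPKM. The lowest listed members were NR0B1, an orphan nuclear receptor, with 8.07 FPKM, SLC7A5 with 14.8 and ABCC3 with 27.7. NFE2L2 itself had 72.6 and 70.8 FPKM, within the range of its targets. The ferritin light chain, FTL, had 607 and 601 FPKM, while FTH1 differed between the libraries as given above. The span of TXNRD1 contains the ribosomal pseudogene RPL18AP3 on the same strand, with 420 and 431 FPKM, and its part in the level of TXNRD1 was not tested.

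The core of the antioxidant response element, TGACNNNGC on either strand, occurred in the searched promoters of 5 of the 13 NRF2 targets in the tables (38.5%): GCLM, TXNRD1, ME1, EPHX1 and CBR1. Among all 27305 genes 13.2% held it, and so did 5 of the 14 mitosis genes in the tables (35.7%), a like share in a list of another function. The AP-1 letters can fall within the same bases, and ME1 was counted for both. TXNRD1 has a match before each of 2 annotated starts. They are shown with that of GCLM because all 3 lie before genes of the glutathione and thioredoxin systems.
TXNRD1, first start, chr12:104215650-104215718, plus strand: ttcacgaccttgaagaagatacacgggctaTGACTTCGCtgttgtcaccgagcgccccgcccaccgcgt
TXNRD1, other start, chr12:104286900-104286968, plus strand: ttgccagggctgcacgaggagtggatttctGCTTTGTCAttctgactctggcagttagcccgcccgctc
GCLM, chr1:93909431-93909494, minus strand: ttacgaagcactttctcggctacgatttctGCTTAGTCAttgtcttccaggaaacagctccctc

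Genes linked to CREB in lung cancer formed another high list. Its members were chosen with earlier results of these data known, so the shares given here are not those of CREB targets at large. FOS and DUSP4 are also on the list of immediate early genes. Of 21 chosen genes 16 were listed, and 13 had at least 10 FPKM (81.25%, beside 21.6% of all protein-coding genes listed). The same number lay in the top decile, which holds 10% of genes by construction, and the median was 75.2 FPKM. All 3 members of the NR4A family of orphan nuclear receptors were in the top decile: NR4A1 had 250 FPKM in both libraries, NR4A2 119 and 124, and NR4A3 32.7 and 34.5. CPS1 is on this list as well, and its 237 FPKM place it 78th of the protein-coding genes. PDE4B, which degrades cyclic AMP, had 121 FPKM, CREM, a CREB relative, 107, and SIK1, a kinase that restrains CRTC coactivators, 78.5. SIK1 has a nearly identical copy in the genome, so its level is uncertain. The phosphatase DUSP4 had 152 FPKM, the EGF receptor ligand AREG 137, and PTGS2, the inducible cyclooxygenase, 71.9. The regulators differed: CREB1 had 7.79 and 7.14 FPKM, CRTC1 2.07 and 1.93, and CRTC3 37.6 and 37.9, so CRTC3 was the higher of the 2 listed coactivators. INSL4, an insulin-like peptide of the placenta, was low at 3.68 and 2.76 FPKM.

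The CRE occurred in 2 of the 14 promoters of this list in the tables, CREM and AREG (14.3%, beside 2.03% of all genes). The 14 mitosis genes and the 14 immediate early genes in the tables also had 2 each. The searched letters are themselves the full palindrome. The CREM window lies before a start inside the span of the gene (35126791 to 35212958), not before its first base.
CREM, CRE, chr10:35195822-35195889, plus strand: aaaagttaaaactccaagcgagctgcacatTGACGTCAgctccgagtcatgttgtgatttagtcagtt
AREG, CRE, chr4:74445041-74445108, plus strand: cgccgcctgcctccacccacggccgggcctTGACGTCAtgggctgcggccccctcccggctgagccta

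**Figure D3:**
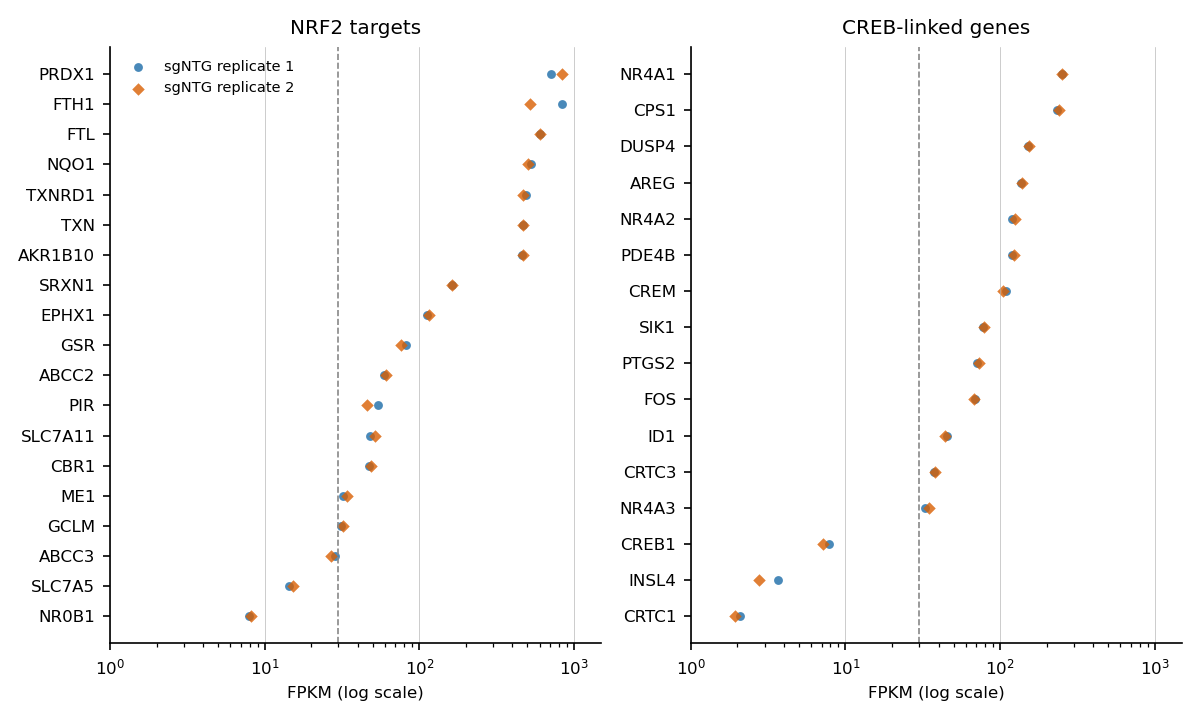
FPKM (log scale) of listed NRF2 targets (left) and CREB-linked genes (right) by library (circles, sgNTG replicate 1; diamonds, sgNTG replicate 2); the dashed line is the start of the protein-coding top decile, 29.8 FPKM. Most genes of both lists lie right of the line, and the low end of the right panel holds CREB1, CRTC1 and the peptide gene INSL4.

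Immediate early genes, which growth signals induce within minutes, were high in these cells as harvested. Of 20 listed, 19 had at least 10 FPKM (95%, beside 21.6% of all protein-coding genes listed). The top decile, which holds 10% of genes by construction, held 15 of them, and the list's median was 52.8 FPKM. MYC had 166 and 172 FPKM, the phosphatase DUSP1 154 and 155, and IER3 155 and 154. FOS had 68.3 and 68.1 FPKM and FOSB 53.0 and 51.8. The span of FOSB lies within that of ERCC1 on the other strand, at 36.6 and 34.4 FPKM, and the part of ERCC1 was not tested. EGR3, a zinc finger factor, was the one member under 10 FPKM, at 0.728 and 0.733, while its relative EGR1 had 34.8 FPKM. DUSP6 and DUSP5, which switch off ERK, had 69.8 and 36.9 FPKM. For each of these genes the values of both libraries lay close together.

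Secreted factors ranged widely, with a median of 14.8 FPKM over 27 listed genes. After CXCL1 came FST (follistatin, an activin antagonist) with 284 and 288 FPKM, STC1, and the cytokine IL6 with 264 and 263 FPKM. CXCL5, a neutrophil chemokine, had 149 FPKM. IGFBP6, an IGF-binding protein, had 55.1 FPKM and PAEP, a lipocalin known from the endometrium, 37.9. The lowest members were CCL2 with 0.0267 FPKM, IL11 with 0.0473 and CSF2 with 0.0808, each listed at 0 in 1 library. CXCL1, IL6 and CXCL5, whose promoter windows are given above, were the only 3 of the 20 promoters of this list in the tables with the NF-kB letters (15%, beside 1.37% of all genes). All 3 were among the 5 highest of the 27 by level, but so was FST, whose searched promoter lacks these letters. A link between the letters and the level was not tested.

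Proteases and their inhibitors at the cell surface included 4 genes above 100 FPKM (23.5% of those listed, beside 1.98% of all protein-coding genes). Besides TFPI2 these were TIMP1, an inhibitor of metalloproteinases, with 469 and 465 FPKM, PLAUR, the urokinase receptor, with 231 and 236, and PLAT, the tissue plasminogen activator, with 171 and 178. Both an activator of plasminogen and an inhibitor of plasmin were thus abundant. TIMP2 had 57.3 FPKM and ADAMTS1 35.3. The metalloproteinases MMP2, MMP9 and MMP3 had 0.0528, 0.0614 and 0.101 FPKM, the lowest of the 17 listed genes.

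The basement membrane genes were led by laminin chains. LAMC1 had 226 and 233 FPKM, LAMB1 221 and 193, and LAMA1 94.5 and 92.1, which are the 3 chains of laminin-111. LGALS1, a galectin, had 190 FPKM and CD44, the hyaluronan receptor, 84.2. Among integrins ITGAV had 73.9 FPKM. Of the listed genes of subunits that pair with it, ITGB8 had 12.5 and 12.1 FPKM, while ITGB3 and ITGB6 had 0.0448 and 0.0305. LAMB3, another laminin chain, was lower with 7.71 FPKM.

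Receptor tyrosine kinases were at modest levels, with a median of 1.84 FPKM above 0. None of the 22 listed lay in the top decile, which holds 10% of genes by construction. MET, the receptor for hepatocyte growth factor, was highest with 18.3 FPKM, followed by IGF1R with 13.9 FPKM. EPHA2, an ephrin receptor, had 11.7 FPKM, EGFR 8.41 and 8.20, AXL 3.96, and ALK, ROS1 and KIT were listed at 0.

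Among cancer drivers and suppressors, NRAS, a small GTPase of growth signalling, had 18.5 FPKM. CDKN1A, a cell cycle inhibitor, had 79.1 and 73.1 FPKM and MDM2, a ubiquitin ligase, 27.1. CDKN2A on chromosome 9 had 0.0476 and 0.0472 FPKM (21967753 to 21995301), and its neighbour CDKN2B was listed at 0 (22002903 to 22009363). MTAP, which salvages methionine and lies just before CDKN2A (21802543 to 21937651), had 27.1 and 22.1 FPKM. DMRTA1, farther along the same arm (22446841 to 22455740), had 0.701 and 0.698 FPKM, and KLHL9 on the other side (21329671 to 21335380) 8.31 and 8.81. CDKN2A was thus far below MTAP and KLHL9 in both libraries, and the 0 of CDKN2B is not read as a level.

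Metabolic lists lay in the upper part of the distribution. Of 9 listed glycolytic genes the median was 35.7 FPKM, led by PGK1 (298), TPI1 (236) and PGAM1 (132), all enzymes that act after the sugar is split. The glucose transporter SLC2A3 had 104 FPKM. In the tricarboxylic acid cycle 16 of 18 listed genes had at least 10 FPKM (88.9%, beside 21.6% of all protein-coding genes listed). Citrate synthase (CS) was highest at 77.5 and 78.0 FPKM. PDK4, a kinase that switches off pyruvate dehydrogenase, had 80.3 and 82.0 FPKM, while PDHA1 of its target complex had 40.9.

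Fatty acid oxidation is the pathway that the CPT1 enzymes feed, and 11 of its 30 chosen genes were listed. ACADVL, which begins the oxidation of very long chains in the mitochondrion, was highest with 134 and 153 FPKM. ACSL3, an acyl-CoA synthetase, had 50.1 FPKM in both libraries, and ETFB, an electron carrier of the pathway, 35.5 and 34.6. The carnitine shuttle genes listed were lower: SLC25A20, the carnitine carrier, had 5.13 and 5.28 FPKM, and CPT2, the shuttle enzyme of the inner membrane, 6.25 and 5.45. CPT2 overlaps CZIB on the other strand by 99 bases. ACSL5 had 0.108 FPKM, far below ACSL3 and ACSL1 (21.0). The list's median was 19.3 FPKM. Of fatty acid synthesis, SCD, the stearoyl-CoA desaturase, was highest with 110 FPKM, and ACACA, which makes malonyl-CoA, had 11.2 FPKM, while ACACB had 1.97.

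Sterol genes had a median of 15.9 FPKM over 18 listed, and GRAMD1B stood far above the others. FDPS, a prenyl synthase, followed with 54.7 FPKM, and FDFT1, which makes squalene, with 35.5. GRAMD1A, a paralog of GRAMD1B, had 18.6 FPKM. The lowest were LSS with 3.11 FPKM and the sterol exporters ABCA1 with 3.83 and ABCG1 with 5.33.

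Genes of protein synthesis and folding were high, ribosomal proteins having the highest median of the lists apart from the 5 markers. All 44 listed cytosolic ribosomal protein genes had at least 10 FPKM (beside 21.6% of all protein-coding genes) and 37 at least 100 (beside 1.98%). Their median was 227 FPKM and RPS26 was lowest at 24.3. Some of their pseudogene rows had more FPKM than the parent gene, as given above, so these levels are uncertain. Among chaperones HSPA5, the main chaperone of the endoplasmic reticulum, had 592 and 598 FPKM, HSP90AB1 429 in both libraries, and HSPD1 411 and 434. HSPE1, its partner, had 318 and 299 FPKM and overlaps HSPD1 on the other strand. The inducible pair HSPA1A and HSPA1B had 113 and 108 FPKM, and since they are nearly identical their split is uncertain. The 20 proteasome genes all had at least 10 FPKM (beside the same 21.6%) and none reached 100 (beside 1.98%). In the integrated stress response, ATF4, its main factor, had 216 and 202 FPKM, WARS1, a tRNA synthetase, 447, and XBP1, a factor of the unfolded protein response, 143. DDIT3, which encodes the stress factor CHOP, had 31.1 FPKM in both libraries, and CHAC1, known as a target of that pathway, 1.13 and 0.529.

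Cell cycle genes showed that transcripts of dividing cells were present at middle to high levels. The mitosis list had a median of 14.8 FPKM over 19 genes, led by AURKA, a spindle kinase, with 81.0 and 82.8 FPKM, CKS2 with 51.8 and PTTG1, which encodes securin, with 49.3. The S phase list had a median of 8.05 FPKM over 20 genes, with PCNA, the replication clamp, highest at 33.4 and 35.3 FPKM. MKI67 had 10.5 and 11.1 FPKM.

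Immune recognition genes included the ubiquitin-like ISG15 with 159 and 160 FPKM, HLA-E, a ligand of natural killer cell receptors, with 88.3, and IFIT1, an interferon-induced RNA sensor, with 56.9. The span of IFIT1 lies within that of LIPA on the other strand, at 56.4 and 57.0 FPKM. The part of LIPA in the level of IFIT1 was not tested. CD274, which encodes the checkpoint ligand PD-L1, had 42.3 and 42.1 FPKM, while its relative PDCD1LG2 had 3.60. CGAS, the sensor of cytosolic DNA, had 1.18 and 0.996 FPKM. The peptide transporter genes TAP1 and TAP2 had 25.6 and 9.91 FPKM. The listed genes of this group had a median of 10.99 FPKM. Of 17, 10 had at least 10 FPKM (58.8%, beside 21.6% of all protein-coding genes listed).

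**Figure D4:**
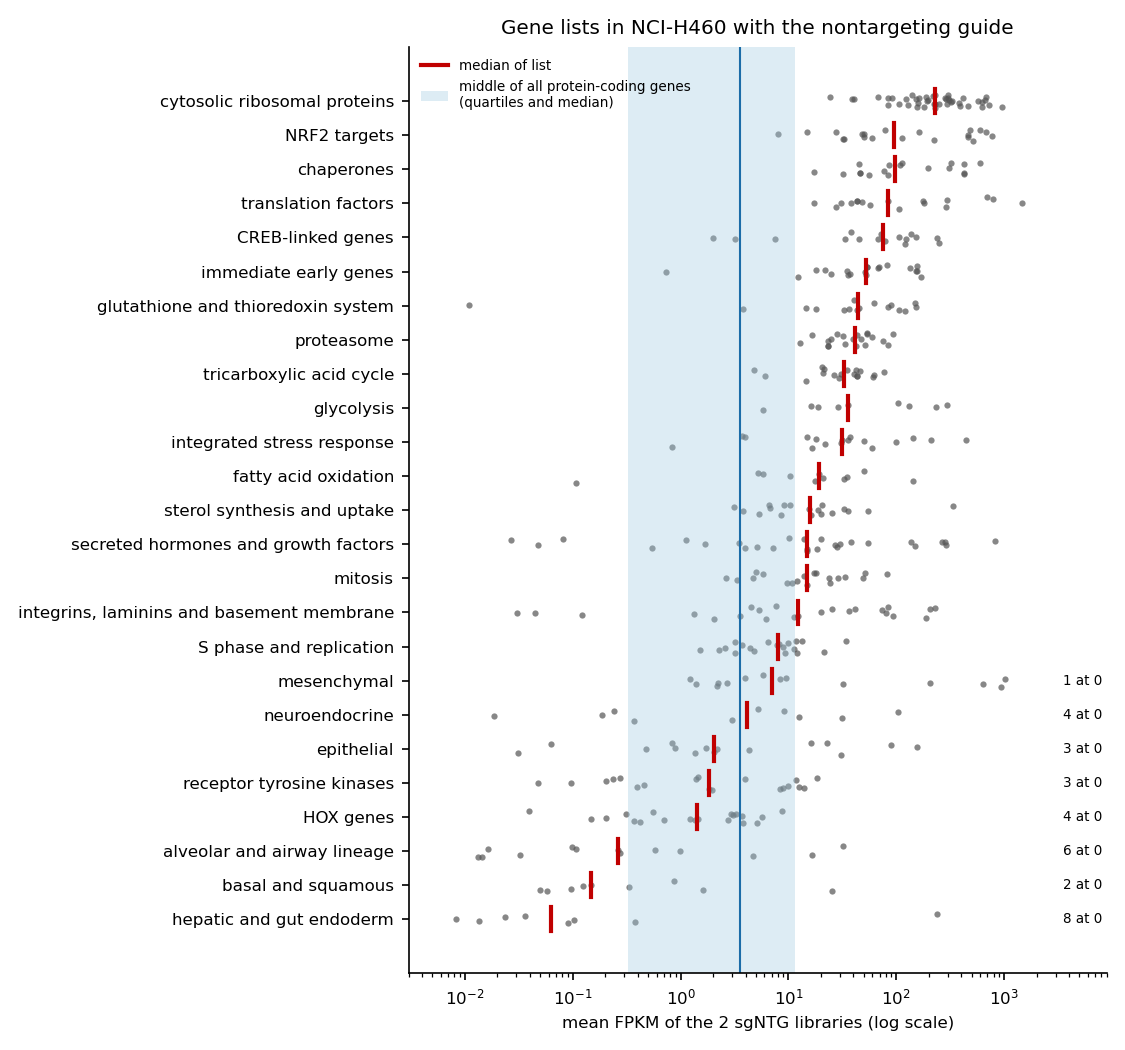
Mean FPKM (log scale) of the members of 25 gene lists in the sgNTG libraries, 1 point per gene above 0, with the number listed at 0 at the right. Red bars are list medians and the blue band and line are the quartiles and median of all protein-coding genes above 0; medians run down from 227 FPKM for ribosomal proteins, 96.9 for chaperones and 96.2 for NRF2 targets to 0.063 for hepatic and gut genes.

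A large share of the summed FPKM fell on rows that share sequence with other genes. The 10 highest rows of any type held 23.1% of the sum, and the 100 highest 44.1%. The 404 nuclear copies of mitochondrial genes held 22.8% of the sum. The highest were MTCO1P12 with 12018 FPKM (chromosome 1, 631074 to 632616), MTCO3P12 with 9308, MTATP6P1 with 7422, MTCO2P12 with 6719 and MTATP8P1 with 6629, while the mitochondrial genes they copy were listed at 0. All 5 lie next to each other on chromosome 1. Pseudogenes of ribosomal proteins held a further 6.25% of the sum, and 199 of the 1604 had at least 1 FPKM. Some of them had more FPKM than the parent gene, as given above. How reads with several matches were assigned is not stated in the labels or notes.

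The libraries differed over 1.5-fold for 185 of the 8848 genes at 1 FPKM or more (2.09%), on the FPKM + 1 scale. Of these, 99 were higher in replicate 2 and 86 in replicate 1, and 75 were protein-coding. FTH1 and most of the 5 least repeatable genes at 10 FPKM or more lie over other genes. BEST1, a chloride channel gene, had 41.8 FPKM in replicate 1 and 109 in replicate 2, and it overlaps FTH1 on the other strand, which differed the opposite way. TPT1-AS1 had 5.77 and 16.1 FPKM and overlaps 2 genes on the other strand that were higher in replicate 1: RCN1P2 by 915 bases, with 59.99 and 34.98 FPKM, and TPT1 by 26 bases, with 892 and 671. PTP4A1, a phosphatase, had 6.52 and 19.98 FPKM and overlaps ENSG00000285976 on the same strand, at 163 and 157, so the pair summed to 169 and 177. CDC42, a small GTPase, had 12.5 and 28.0 FPKM, and ENSG00000288710 had 1.61 and 22.0. EEF1A1 with its pseudogenes summed to 4394 and 3906 FPKM over 50 rows, FTH1 with its own to 1045 and 699, and TPT1 with its own to 929 and 704, so each sum was higher in replicate 1, as was the parent gene. Over the lists and named genes, 112 of 523 genes at 1 FPKM or more overlapped another such gene, and 22 overlapped one with a higher level.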

How the data were processed

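Per the labels' protocols, TRIzol RNA was bead-captured for mRNA before library construction. STAR, StringTie and the build hg38 are named in the submitters' processing notes. Their versions, the annotation, any filter and the use of strand were not given in the sources used here. A single FPKM table was deposited by the authors, with 52807 rows and 6 library columns, of which the 4 of the CPT1 guides were not used. Of 51447 names, 47556 matched a GENCODE 29 gene, and 45 identical repeated rows were dropped. Genes named by several differing rows were left out of the lists.

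Levels, means of 2 libraries, percentiles, 37 list summaries and promoter searches were computed with Python 3.11.15, pandas 2.3.3 and numpy 2.4.6, and ranking was tested on simulated data. The 2 libraries of 1 group allowed no test. Ratios between libraries used FPKM + 1 over rows averaging 1 FPKM or more. Relative depth came from the steps between low values of genes of 107 nt, where 95.1% (replicate 1) and 98.1% (replicate 2) of 41 and 52 values lay within 0.1 of a whole step. Absolute depth is unknown, so no counting interval is given.

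Named genes were the 5 markers, the 20 highest protein-coding and 5 highest other genes, up to 8 highest and 3 lowest members of each list, the defining markers and the 5 least repeatable genes averaging 10 FPKM or more. A few genes that the rule names are not reported here. Other genes named were chosen after their values were seen. Members and lists were chosen with earlier results of these data known. Alternatives left out each library and changed the threshold, filter, pseudocount, ranking set and scaling.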

Additional observations from a re-analysis of the deposited data

How the results depend on the processing

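No test was made, so no call could be lost. Counting only protein-coding genes lowered the share of the summed FPKM in the 10 highest genes to 8.07%, and that in the 100 highest to 30.5%. The number of genes over 1.5-fold apart between the libraries was 452 with a pseudocount of 0.1 FPKM and 439 with no filter on low values, against 185. Leaving out each library in turn gave 8859 to 8886 genes at 1 FPKM or more, 6721 to 6728 of them protein-coding, and shares of 22.9% to 23.3% and 43.7% to 44.4%. At least 1 FPKM in both libraries gave 8486 genes, a threshold of 0.5 FPKM 10730 and keeping every row 8857. Rescaling each library to the same larger sum (as in TPM) gave 12973. That rescaling raised every value, the FPKM sums being 255781 and 253618, so it acted as a lower threshold. The library correlation was 0.982 with a pseudocount of 0.1 FPKM and 0.993 with no filter. Median percentiles of 36 lists moved by -2.56 to 1.23 without replicate 1 and by -4.44 to 2.97 without replicate 2; ranking among all listed genes above 0 raised all 36, by 0.159 to 31.1, and ranking among protein-coding genes at 1 FPKM or more, which drops the low members, moved them by -18.0 to 86.0 (25 lower, 11 higher). Percentiles of lists with many low members thus depend on the ranking set. No paired analysis was possible because only 1 group was described and no test was made. Depth is unknown in FPKM, so the counting error of levels under 1 FPKM cannot be given.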

Other observations

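HOX genes, which record position along the body axis, were read as a family not described above. None of the 24 listed reached 10 FPKM (beside 21.6% of protein-coding genes listed) and 12 had at least 1 FPKM (50%, beside 51.6%). Their median was 1.41 FPKM above 0. HOXB6 was highest with 8.53 and 8.80 FPKM, followed by HOXA3 with 5.17 and 6.15, HOXD8 with 5.40 and 4.85 and HOXA10 with 3.67 and 3.95. The family was thus spread over the A, B, C and D clusters at low levels. Of the 24 members 4 were listed at 0, beside 22.5% of all protein-coding genes listed.

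Regulators of fetal and stem cells were uneven. HMGA1, a chromatin protein of embryonic and cancer cells, had 98.7 and 96.4 FPKM, SOX9, a factor of embryonic progenitors, 96.2 and 98.2, and SOX4 42.1 and 43.3. IGF2BP3, an RNA-binding protein of the fetus, had 29.1 FPKM, its relative IGF2BP2 6.72 and IGF2BP1 0.0267. HMGA2 had 0.337 and 0.573 FPKM, POU5F1 0.0558, and LIN28A was listed at 0.

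Among long noncoding RNAs, NEAT1, the scaffold of paraspeckles, had 107 and 143 FPKM, ZFAS1 109 and 112, NORAD 90.6 and 91.4 and GAS5 61.2 and 67.3. CASC15 had 58.6 and 58.9 FPKM. RMRP and TERC, the RNA components of RNase MRP and telomerase, had 0.221 and 0.0145 FPKM in replicate 1 and were listed at 0 in replicate 2. The RNA was bead-captured for mRNA, so these values are not read as low levels in the cells. Hypoxia-linked genes included HIF1A with 226 and 245 FPKM and BNIP3 with 190 and 191, while CA9, a carbonic anhydrase, had 8.63 and 7.06.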
